A study of Mus musculus with 6 samples.

Results

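Trp53 and 9 direct targets of its protein p53 were followed in GC-2spd cells that were either left unexposed or given fine particulate matter (PM2.5) for 48 h. The 10 symbols (Trp53, Mdm2, Cdkn1a, Ccng1, Trp53inp1, Sesn2, Gadd45a, Phlda3, Eda2r and Zmat3) were chosen by name as p53 and genes that p53 is known to switch on, and each was matched through GENCODE M21 to 1 of the 54886 Ensembl identifiers in the expression files. All 10 passed the filter on low values, a mean FPKM of at least 1 over the 6 libraries, which left 11884 genes for testing. FPKM counts the sequenced fragments of a gene per unit of its length and of the size of the library, so that levels can be compared between genes.

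GC-2spd is an immortal line derived from spermatocytes of BALB/c mice. It was made by introducing the large T antigen of the virus SV40 together with a temperature-sensitive form of mouse p53, so that both groups carried them. Whether the introduced p53 was active at the temperature of these cultures was not measured. The control group had 3 libraries from cells in normal medium (0 μg/mL), and the PM2.5 group had 3 libraries from cells exposed to 100 μg/mL of PM2.5, a standard reference material of urban particles. According to the methods, the control medium also received PBS. Nothing in the labels tells whether the 3 libraries of a group came from separate cultures, and the p-values then measure only the spread between these libraries, which may be technical.

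The p53 protein is a transcription factor that is kept low in unstressed cells by Mdm2, a ubiquitin ligase that marks it for destruction. DNA damage and other stresses free p53 from Mdm2, and p53 then binds paired half-sites near its target genes and raises their transcription, Mdm2 among them. The control of p53 acts mainly on the protein and not on the Trp53 RNA, so that the RNA of its targets is the usual readout of its activity. Large T antigen binds p53 and keeps it from acting on its targets.

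The letters of the p53 half-site consensus were searched in RefSeq promoter windows of the build GRCm38.p6, from 250 bases before to 50 bases after a start site. The consensus reads the same on both strands, so that 1 search covers both. A total of 8 members had an entry, with 9 windows among them, and 5 windows of 5 members held the consensus. This was 55.6% of the windows of these genes, against 8.36% of the 32851 windows of all genes. The matches of these 5 members are shown with 20 bases on either side and with the letters of the half-site in capitals. The Cdkn1a window held 2 matches. Those of Trp53, Mdm2, Ccng1 and Gadd45a held 1 each, which is not a pair of half-sites.
Trp53, chr11:69580264-69580313, plus strand: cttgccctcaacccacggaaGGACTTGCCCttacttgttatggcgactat
Mdm2, chr10:117710915-117710964, minus strand: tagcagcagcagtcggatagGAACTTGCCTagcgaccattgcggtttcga
Cdkn1a, chr17:29090886-29090957, plus strand: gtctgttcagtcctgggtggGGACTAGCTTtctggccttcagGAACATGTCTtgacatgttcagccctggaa
Ccng1, chr11:40755442-40755491, minus strand: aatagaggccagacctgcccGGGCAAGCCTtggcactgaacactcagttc
Gadd45a, chr6:67037418-67037467, minus strand: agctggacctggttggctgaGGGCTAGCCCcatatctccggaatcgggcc

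In the Cdkn1a window, which belongs to the upstream of its 2 start sites, the exact matches begin at −73 and −51, counted in bases from the start. The bases directly after the match at −51 miss the consensus only in their first letter, and were left in small letters. The 2 marked matches are therefore not shown to be the pair that p53 binds. The half-site begins at −75 in Trp53, at −186 in Mdm2, at −185 in Ccng1 and at −40 in Gadd45a. No match was found in the other Cdkn1a window or in those of Sesn2, Phlda3 and Eda2r, which says only that these letters are not in those windows. A match is a description of the sequence, and binding was not measured.

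Control replicate 2 stood apart from the other libraries. Its log2(FPKM + 1) had a Pearson correlation across genes of 0.732 to 0.779 with the other libraries, while control replicates 1 and 3 had 0.992. It gave 14.5% of its reads to mitochondrial genes, against 1.65% to 1.95% in the other 5 libraries, although the recovered depth was alike in all 6, from 16209352 to 18003201 reads. PM2.5 replicate 3 had a correlation of 0.972 with both control replicates 1 and 3, and of 0.950 and 0.958 with PM2.5 replicates 1 and 2. Of 10 markers of spermatocytes and other germ cells none had a mean FPKM of at least 1, and Dazl, Spo11 and Mael were at 0 in every library, while 6 of 8 markers of fibroblasts and peritubular cells did. The summed FPKM of the germ cell markers was 2.61 in control replicate 2 (2.56 of it Sycp3), 0.528 to 0.647 in the other controls and 0.0750 to 0.678 in the PM2.5 group. That of the fibroblast markers was 1463 in control replicate 2, 940 to 959 in the other controls and 733 to 941 in the PM2.5 group. The summed Sertoli cell markers, of which Clu alone had a mean FPKM of at least 1, came to 15.0 in control replicate 2, 21.7 to 21.9 in the other controls and 24.7 to 26.9 in the PM2.5 group. Those of immune cells had 15.5, all of it Cd68, in control replicate 2, 0.795 to 1.07 in the other controls and 1.10 to 1.87 in the PM2.5 group, with Ptprc, Adgre1 and Itgam at 0 throughout. The part of these differences in the values of the p53 genes was not tested. The fold changes below are therefore given with all 6 libraries and without control replicate 2.

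None of the 10 genes was called between PM2.5 and control cells at an adjusted p under 0.05, with or without control replicate 2, in fits that called 0.0926% and 0.993% of all genes, so that a count of 0 among 10 genes does not set them apart. Of the canonical readouts of p53, Cdkn1a had a mean of 3.99 FPKM in the control group and 4.14 in the PM2.5 group, and Mdm2 had 38.0 and 30.4. Without control replicate 2, the log2 fold changes ran from −1.15 for Trp53inp1 to 0.69 for Gadd45a, with Cdkn1a at −7.8e-05 and the other 7 between −0.44 and −0.11. The Trp53 RNA itself was very abundant in both groups.

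Trp53 (ENSMUSG00000059552, chromosome 11, 69580359 to 69591873, plus strand) had 1306, 405 and 1371 FPKM in control replicates 1 to 3 and 1205, 1172 and 1035 FPKM in PM2.5 replicates 1 to 3. The control libraries 1 and 3 lay above all 3 PM2.5 libraries, and control replicate 2 lay far below every other library, so that the groups overlapped. Mean levels were 1027 ± 540 FPKM in the control group and 1137 ± 90.2 FPKM in the PM2.5 group (SD, n = 3). The log2 fold change of FPKM + 1 was 0.34 (SE 0.54, adjusted p = 0.879, limma), and without control replicate 2 it was −0.24 (SE 0.11, adjusted p = 0.389, limma), which turned its direction.

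Few genes had as much RNA as Trp53. Its mean level stood at the 99.8th percentile of the 11884 genes tested, and outside control replicate 2 its FPKM was 131 to 167 times the median gene of the library. Trp53 held 0.545%, 0.131% and 0.571% of the recovered reads in control replicates 1 to 3, and 0.512%, 0.491% and 0.431% in PM2.5 replicates 1 to 3. The 95% Wilson intervals of these shares, which cover counting error only, were 0.541% to 0.548% in control replicate 1 and 0.129% to 0.133% in control replicate 2. By read number it was the gene at rank 2 in control replicates 1 and 3, rank 4 in the 3 PM2.5 libraries and rank 61 in control replicate 2. The files hold 1 value for the gene, in which the cell's own Trp53 and the introduced form cannot be told apart. In these bulk samples, fewer cells of a kind and less RNA per cell cannot be told apart either.

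Some of the Trp53 sequence is shared with Trp53-ps, a processed pseudogene on chromosome 17. Of the 31-base sequences of Trp53, 10.2% also occur in other genes, most often in Trp53-ps. The pseudogene had 72.8, 7.03 and 88.8 FPKM in control replicates 1 to 3 and 145, 127 and 52.6 FPKM in PM2.5 replicates 1 to 3. Set against the Trp53 reads of the same library, its reads came to 1.60%, 0.499% and 1.86% in the control group and 3.46%, 3.12% and 1.46% in the PM2.5 group. PM2.5 replicates 1 and 2 were the highest and PM2.5 replicate 3 was below control replicates 1 and 3, so that the groups overlapped, and the log2 fold change of Trp53-ps was 1.41 (SE 0.99, adjusted p = 0.875, limma), or 0.30 without control replicate 2 (SE 0.47, adjusted p = 0.783). How reads that match both genes were assigned is not given in the sources used here.

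**Figure D1:**
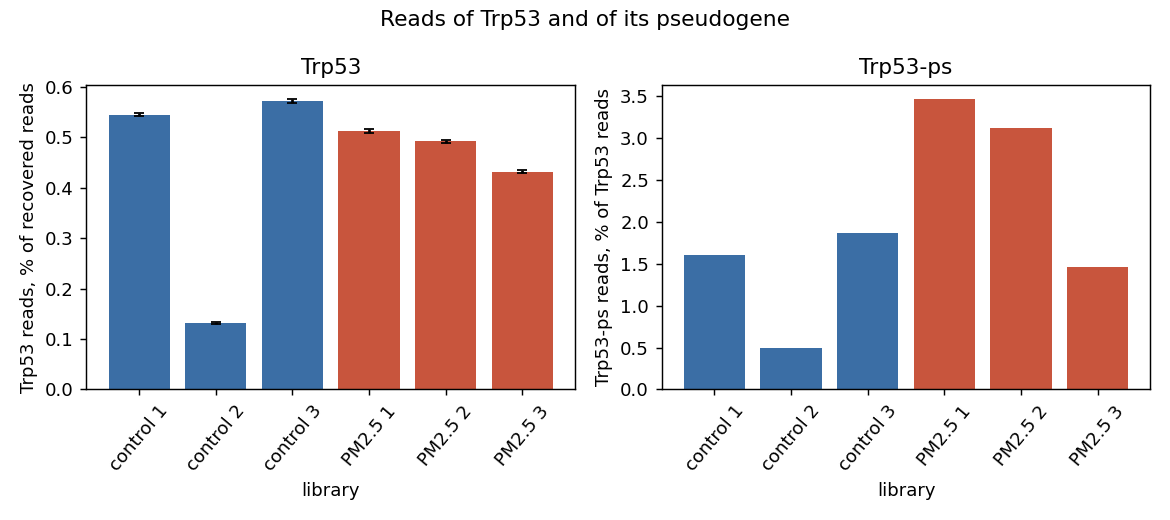
Reads of Trp53 as a percentage of all recovered reads (left, black bars showing the 95% Wilson interval) and reads of the pseudogene Trp53-ps as a percentage of the Trp53 reads (right) in each of the 6 libraries, control in blue and PM2.5 in red. Control replicate 2 is the lowest in both panels, at 0.131% and 0.499%, and PM2.5 replicates 1 and 2 are the highest on the right, at 3.46% and 3.12%.

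A pair of members act on p53 itself. Mdm2 (ENSMUSG00000020184, chromosome 10, 117688875 to 117710758, minus strand), the ubiquitin ligase of p53, had 34.5, 42.9 and 36.7 FPKM in the control libraries and 27.5, 27.5 and 36.2 FPKM in the PM2.5 libraries. PM2.5 replicates 1 and 2 were below every control library, and PM2.5 replicate 3 lay between control replicates 1 and 3. Its log2 fold change was −0.32 (SE 0.21, adjusted p = 0.875, limma), and −0.23 without control replicate 2 (SE 0.15, adjusted p = 0.512). Ccng1 (ENSMUSG00000020326, chromosome 11, 40748552 to 40755311, minus strand) encodes cyclin G1, which brings the phosphatase PP2A to Mdm2. It had 41.9, 23.5 and 42.0 FPKM in the control libraries and 25.6, 30.7 and 41.0 FPKM in the PM2.5 libraries. All PM2.5 libraries were below control replicates 1 and 3 and above control replicate 2, and PM2.5 replicate 3 was within 1 FPKM of the higher controls. Its log2 fold change of −0.12 (SE 0.32, adjusted p = 0.917, limma) became −0.39 without control replicate 2 (SE 0.21, adjusted p = 0.438).

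Both members that arrest the cell cycle had low to moderate levels. Cdkn1a (ENSMUSG00000023067, chromosome 17, 29090976 to 29100727, plus strand) encodes p21, the inhibitor of cyclin-dependent kinases through which p53 stops the cycle. It had 3.32, 3.60 and 5.04 FPKM in the control libraries and 4.99, 3.76 and 3.68 FPKM in the PM2.5 libraries, from 166 to 323 reads. The values of the groups were interleaved, with 1 library near 5 FPKM in each. Cdkn1a had a log2 fold change of 0.05 (SE 0.21, adjusted p = 0.946, limma) and a 95% interval of −0.47 to 0.57, and the interval was −0.51 to 0.51 without control replicate 2. Of its exon bases, 7.68% lie under a gene of the opposite strand, and 9.78% of the 31-base stretches of Cdkn1a are also found elsewhere among the genes.

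Gadd45a (ENSMUSG00000036390, chromosome 6, 67035096 to 67037457, minus strand) encodes a stress protein that binds p21 and PCNA and inhibits the Cdk1 kinase. It had 5.71, 31.2 and 4.84 FPKM in the control libraries and 11.2, 9.65 and 7.00 FPKM in the PM2.5 libraries. The 3 PM2.5 libraries were above control replicates 1 and 3, while control replicate 2 was 5.91 times the mean of those controls and above every other library. With all 6 libraries the log2 fold change was −0.09 (SE 0.68, adjusted p = 0.966, limma). Without control replicate 2 the mean FPKM was 1.76 times that of the controls, and the log2 fold change of 0.69 (SE 0.20, 95% interval 0.17 to 1.22) had an unadjusted p of 0.0191 and an adjusted p of 0.225. Of its exon bases, 19.1% are overlapped by E230016M11Rik on the opposite strand, a transcript with at most 0.462 FPKM in any library. Whether the counting used strand is not given in the sources used here.

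Trp53inp1 and Sesn2 link p53 to stress and metabolism. Trp53inp1 (ENSMUSG00000028211, chromosome 4, 11156431 to 11174379, plus strand), whose protein helps p53 to be phosphorylated and takes part in autophagy and cell death, had the largest difference of the 10 outside control replicate 2. It had 5.64, 1.46 and 6.89 FPKM in the control libraries and 1.76, 2.43 and 2.67 FPKM in the PM2.5 libraries. Control replicates 1 and 3 were far above the PM2.5 libraries, and control replicate 2 was the lowest of all. With 6 libraries the log2 fold change was −0.63 (SE 0.46, adjusted p = 0.875, limma). Without control replicate 2 the PM2.5 mean was 63.5% lower, and the log2 fold change of −1.15 (SE 0.16, 95% interval −1.57 to −0.73) had an adjusted p of 0.0648 in limma. It thus missed the threshold of 0.05.

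Sesn2 (ENSMUSG00000028893, chromosome 4, 132492032 to 132510501, minus strand) encodes sestrin 2, which dampens mTORC1 signalling under stress. It had 5.69, 13.5 and 6.37 FPKM in the control libraries and 7.04, 6.11 and 3.81 FPKM in the PM2.5 libraries. PM2.5 replicate 1 was above and PM2.5 replicate 3 below control replicates 1 and 3, and control replicate 2 was the highest. Sesn2 had a log2 fold change of −0.46 (SE 0.37, adjusted p = 0.875, limma), and −0.11 without control replicate 2 (SE 0.24, adjusted p = 0.847).

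The 3 remaining targets bear on cell survival and growth. Phlda3 (ENSMUSG00000041801, chromosome 1, 135766119 to 135769136, plus strand), an inhibitor of the survival kinase Akt, had 33.1, 53.3 and 37.3 FPKM in the control libraries and 40.2, 33.8 and 22.6 FPKM in the PM2.5 libraries. Its groups overlapped with and without control replicate 2, and the log2 fold changes were −0.35 (SE 0.30, adjusted p = 0.875, limma) and −0.16 (SE 0.26, adjusted p = 0.791). PM2.5 replicate 3 was the lowest library, as it was for Sesn2.

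Eda2r (ENSMUSG00000034457, chromosome X, 97333840 to 97377216, minus strand), a receptor of the tumour necrosis factor receptor family, was the member with the lowest level. It had 1.59, 0.968 and 1.93 FPKM in the control libraries and 0.855, 0.928 and 1.32 FPKM in the PM2.5 libraries, which rest on 74 to 205 reads. The PM2.5 libraries were below control replicates 1 and 3. Eda2r had a log2 fold change of −0.28 (SE 0.23, adjusted p = 0.875, limma), and −0.44 without control replicate 2 (SE 0.15, adjusted p = 0.263). Adding 1 to each value understates the change of a gene at this level, and without control replicate 2 the ratio of the mean FPKM was 0.588.

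Zmat3 (ENSMUSG00000027663, chromosome 3, 32334792 to 32366014, minus strand) encodes a zinc finger protein that binds RNA and slows growth. It had 5.59, 1.53 and 5.73 FPKM in the control libraries and 4.35, 4.20 and 4.46 FPKM in the PM2.5 libraries. The PM2.5 libraries lay close together, below control replicates 1 and 3 and above control replicate 2. The log2 fold change was 0.15 (SE 0.41, adjusted p = 0.918, limma), and it turned to −0.32 without control replicate 2 (SE 0.09, adjusted p = 0.189).

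**Figure D2:**
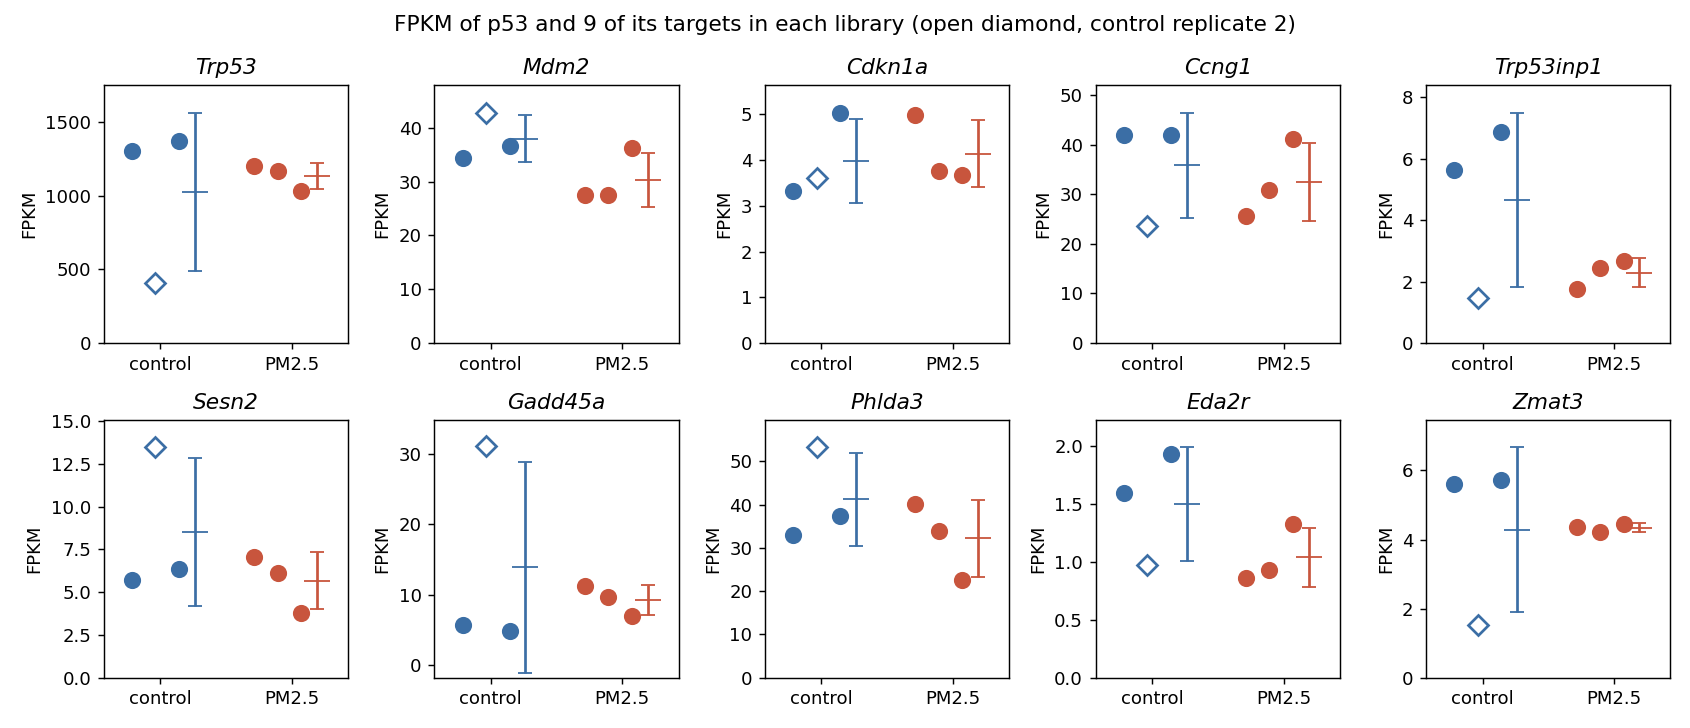
FPKM of Trp53 and its 9 targets in each library on linear axes, control replicates 1 to 3 in blue and PM2.5 replicates 1 to 3 in red from left to right, with the mean and SD of the 3 libraries beside each group. Control replicate 2 (open diamond) is the highest library for Mdm2, Sesn2, Gadd45a and Phlda3 and the lowest for Trp53, Ccng1, Trp53inp1 and Zmat3, and the SD bar of the Gadd45a controls (13.9 ± 15.0) reaches below 0.

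Over the 6 libraries, 0 of the 10 genes were called by limma, where 0.0926% of all genes tested were called (11 genes). None of the 10 had an unadjusted p under 0.05 either, against 3.8% of all genes. A total of 7 of 10 log2 fold changes were below 0, against 48.1% of all genes, and their median was −0.20, against 0.02. The groups overlapped for all 10 genes, while 15.2% of all genes had groups that did not overlap.

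Without control replicate 2, 0 of the 10 genes were called, against 0.993% of all genes (118 genes). Gadd45a on the higher side and Trp53inp1, Eda2r and Zmat3 on the lower side had an unadjusted p under 0.05, which was 4 of 10 against 15.9% of all genes (1 of 10 against 8.23% on the higher side, 3 of 10 against 7.63% on the lower side). The groups no longer overlapped for 6 of the 10 genes, against 37.3% of all genes. The PM2.5 libraries were the lower ones for Trp53, Ccng1, Trp53inp1, Eda2r and Zmat3, 5 of 10 against 19.6%, and the higher ones for Gadd45a, 1 of 10 against 17.7%. The share of genes below 0 was 9 of 10, counting Cdkn1a at −7.8e-05, against 52%, and the median log2 fold change was −0.23, against −0.01 for all genes. Apart from Gadd45a, the upper ends of the 95% intervals lay between −0.73 and 0.51 on the log2(FPKM + 1) scale, so that none of these 9 reached a doubling, a log2 fold change of 1. With all 6 libraries the upper ends lay between 0.20 and 1.66, and those of Trp53 (1.66), Gadd45a (1.56) and Zmat3 (1.14) were past a doubling.

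**Figure D3:**
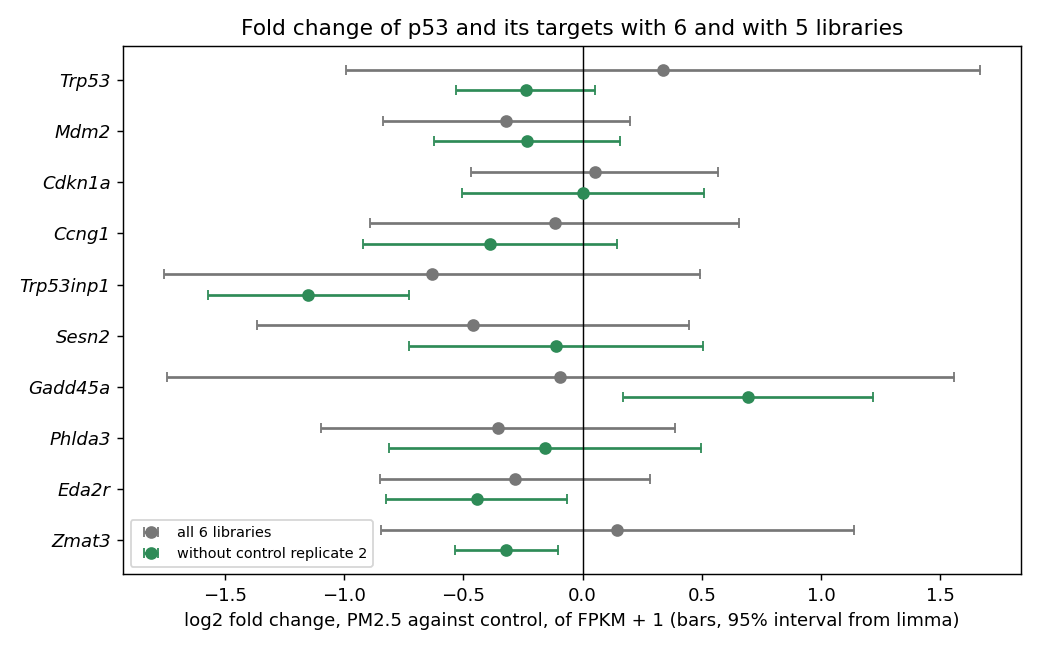
Log2 fold change of FPKM + 1 in PM2.5 against control cells for the 10 genes, with 95% intervals from limma, over all 6 libraries (grey) and without control replicate 2 (green). The grey intervals all cross 0, the green points are below 0 except for Gadd45a at 0.69 and Cdkn1a at 0, and the green interval of Trp53inp1 runs from −1.57 to −0.73.

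Leaving out PM2.5 replicate 3 as well, an alternative added after the data were seen, left 2 libraries in each group. Then 6 of the 10 genes were called, against 47.1% of all genes tested, 5 of them lower (23.6% of all genes) and 1 higher (23.5%). An unadjusted p under 0.05 was found for 7 of 10, against 55.5%. Mdm2 at −0.36, Ccng1 at −0.56, Trp53inp1 at −1.23, Eda2r at −0.54 and Zmat3 at −0.34 fell, and Gadd45a rose by 0.86 on the log2 scale (adjusted p between 0.00192 and 0.0151 in limma). In this fit Trp53 had −0.17 (adjusted p = 0.0549) and Cdkn1a 0.06 (adjusted p = 0.818). The 2 libraries kept in each group were the pair with the highest correlation in that group, 0.992 and 0.991. This choice itself narrows the spread within the groups, so that the p-values of this fit cannot be taken at face value.

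The position of control replicate 2 differed from gene to gene. It was above the other 5 libraries for 4 members and below them for another 4, and within their range for Cdkn1a and Eda2r. That is 8 of 10 outside the range, against 82.9% of all genes tested, of which 39.3% were above and 43.6% below. The ratio of control replicate 2 to the mean of control replicates 1 and 3 ran from 0.234 for Trp53inp1 to 5.91 for Gadd45a. The members below the range have exon lengths of 3512 to 11435 bases, and those above it 1559 to 5083 bases. Across 11740 genes, the log2 difference of this library from the other controls had a Spearman rho of −0.297 with exon length, a description across genes, which are not independent replicates. Its part in the values of these genes was not tested.

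In order of mean level over the 5 libraries without control replicate 2, Trp53 came first with 1218 FPKM. Ccng1 (36.2), Phlda3 (33.4) and Mdm2 (32.5) followed with ranges that overlapped. Below them came Gadd45a (7.68), Sesn2 (5.80), Zmat3 (4.87), Cdkn1a (4.16), Trp53inp1 (3.88) and Eda2r (1.33), each with a range that overlapped that of the next. Only the steps from Trp53 to Ccng1 and from Mdm2 to Gadd45a separated neighbours. The FPKM of Trp53 was 37.9, 9.44 and 37.3 times that of Mdm2 in the control libraries and 43.8, 42.5 and 28.6 times in the PM2.5 libraries, so that control replicate 2 had the lowest ratio and the other control libraries lay between the PM2.5 libraries.

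By the differences between libraries, the genes most like Trp53 were Nr2c2, Epb41l2 and Tax1bp3. Likeness was the root mean square difference of centred log2(FPKM + 1) over the 6 libraries, and it was 0.0459 to 0.0544 for these genes, against a median of 0.619 over all genes tested. Nr2c2 had 3.86, 0.397 and 3.95 FPKM in the control libraries and 3.43, 3.32 and 2.56 FPKM in the PM2.5 libraries. Control replicate 2 was the lowest library of both genes, but the drop of Nr2c2 in FPKM was deeper. For Trp53 that library was 0.302 times the mean of control replicates 1 and 3. Adding 1 before the log shrinks differences at the low level of Nr2c2, so that the likeness is not one of FPKM ratios. For Mdm2 the most alike genes were Ska3, Ccz1 and Spast (0.0320 to 0.0352, median 0.440), and for Cdkn1a Vax2, AA414768 and Naif1 (0.0650 to 0.114, median 0.400).

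The rest of the pathway was read from 6 lists with 81 other genes, of which 73 passed the filter. None of the 73 was called with 6 libraries or without control replicate 2, and 1 of them (1.37%) and 14 of them (19.2%) had an unadjusted p under 0.05, against 3.8% and 15.9% of all genes. Their median log2 fold changes were 0.01 and −0.06, against 0.02 and −0.01. The groups did not overlap for 11 of the 73 genes with 6 libraries, against 15.2% of all genes. Without control replicate 2 this held for 26 of the 73, against 37.3%. Of the 14 genes with an unadjusted p under 0.05 without that library, 5 were higher and 9 lower.

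Among the regulators of p53 and the genes of DNA damage signalling, 10 of 18 tested genes were above 0 and 8 below with 6 libraries, and 6 above and 12 below without control replicate 2. The smallest unadjusted p belonged to Hipk2, a kinase that phosphorylates p53, with a log2 fold change of 0.51 (SE 0.38, adjusted p = 0.875, limma), and to H2afx, the histone that is phosphorylated at DNA breaks, with −0.69 (SE 0.55, adjusted p = 0.875). Leaving out control replicate 2 gave 0.15 (SE 0.25) and −0.26 (SE 0.47). H2afx had 67.8, 173 and 70.8 FPKM in the control libraries and 78.1, 82.1 and 30.0 FPKM in the PM2.5 libraries, so that control replicate 2 was the highest and PM2.5 replicate 3 the lowest library. The p53 relatives Trp63 and Trp73 were under the filter and were not tested, and Trp73 had 0 reads in all 6 libraries. Trp63 had 0.199, 0.239 and 0.198 FPKM in the control libraries and 0.0334, 0.0269 and 0.0132 FPKM in the PM2.5 libraries. These low values rest on 26 to 31 reads in the control group and 2 to 5 reads in the PM2.5 group.

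Of the other targets in cell cycle arrest, Btg2, which slows proliferation, was the gene with an unadjusted p under 0.05 in both fits. It had 7.54, 11.5 and 9.40 FPKM in the control libraries and 5.92, 4.81 and 5.69 FPKM in the PM2.5 libraries. Every PM2.5 library was below every control library, and the log2 fold change was −0.68 (SE 0.21, adjusted p = 0.875, limma), or −0.55 without control replicate 2 (SE 0.14, adjusted p = 0.174). Psrc1, a protein of the spindle, had a log2 fold change of −0.55 (SE 0.36), or −0.17 (SE 0.14) without control replicate 2. Plk2, a kinase of the stress response that was named here after its values were seen, lay on the other side and had the lowest adjusted p of the 73 genes without control replicate 2. It had 17.9, 42.6 and 21.1 FPKM in the control libraries and 36.0, 32.5 and 42.3 FPKM in the PM2.5 libraries, with every PM2.5 library above control replicates 1 and 3 and below control replicate 2. Its log2 fold change was 0.52 with 6 libraries (SE 0.35, adjusted p = 0.875, limma) and 0.89 without control replicate 2 (SE 0.15, adjusted p = 0.0868). The list had 4 genes above and 4 below 0, or 5 and 3 without control replicate 2.

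The cell death targets had 6 genes above and 7 below 0, or 7 and 6 without control replicate 2. Perp, a membrane protein of desmosomes that takes part in cell death, had 2.04, 1.15 and 2.16 FPKM in the control libraries and 2.81, 2.69 and 3.37 FPKM in the PM2.5 libraries. Aen, a nuclease, had 4.62, 3.64 and 4.93 FPKM and 7.02, 6.80 and 5.30 FPKM. For both genes every PM2.5 library was above every control library, with log2 fold changes of 0.52 (SE 0.22) and 0.45 (SE 0.20) and an adjusted p of 0.875 in limma. Both fold changes were 0.35 without control replicate 2 (SE 0.12 and 0.14, adjusted p = 0.260 and 0.326).

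The 6 tested targets in DNA repair and nucleotide supply had 3 log2 fold changes on each side of 0, or 1 above and 5 below without control replicate 2. Ercc5 and Xpc of nucleotide excision repair had −0.49 (SE 0.32) and 0.22 (SE 0.22), or −0.15 (SE 0.09) and 0.07 (SE 0.15) without that library. The 14 targets in metabolism and stress had 7 on each side, or 5 above and 9 below. Dcxr, a carbonyl reductase, had −0.85 (SE 0.36) and Tigar, which lowers glycolysis, 0.52 (SE 0.26), both with an adjusted p of 0.875 in limma and with groups that did not overlap. They had −0.46 (SE 0.15, adjusted p = 0.253) and 0.27 (SE 0.10, adjusted p = 0.278) without control replicate 2. Of the 14 genes that are lowered through p21 and the DREAM repressor complex, 7 lay on each side of 0 with 6 libraries, and 5 above and 9 below without control replicate 2. Mybl2, a transcription factor of the cycle, had 0.64 (SE 0.32), and Cdc25c, the phosphatase that starts mitosis, had −0.82 (SE 0.46). These became 0.35 (SE 0.19) and −0.30 (SE 0.16) without control replicate 2.

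**Figure D4:**
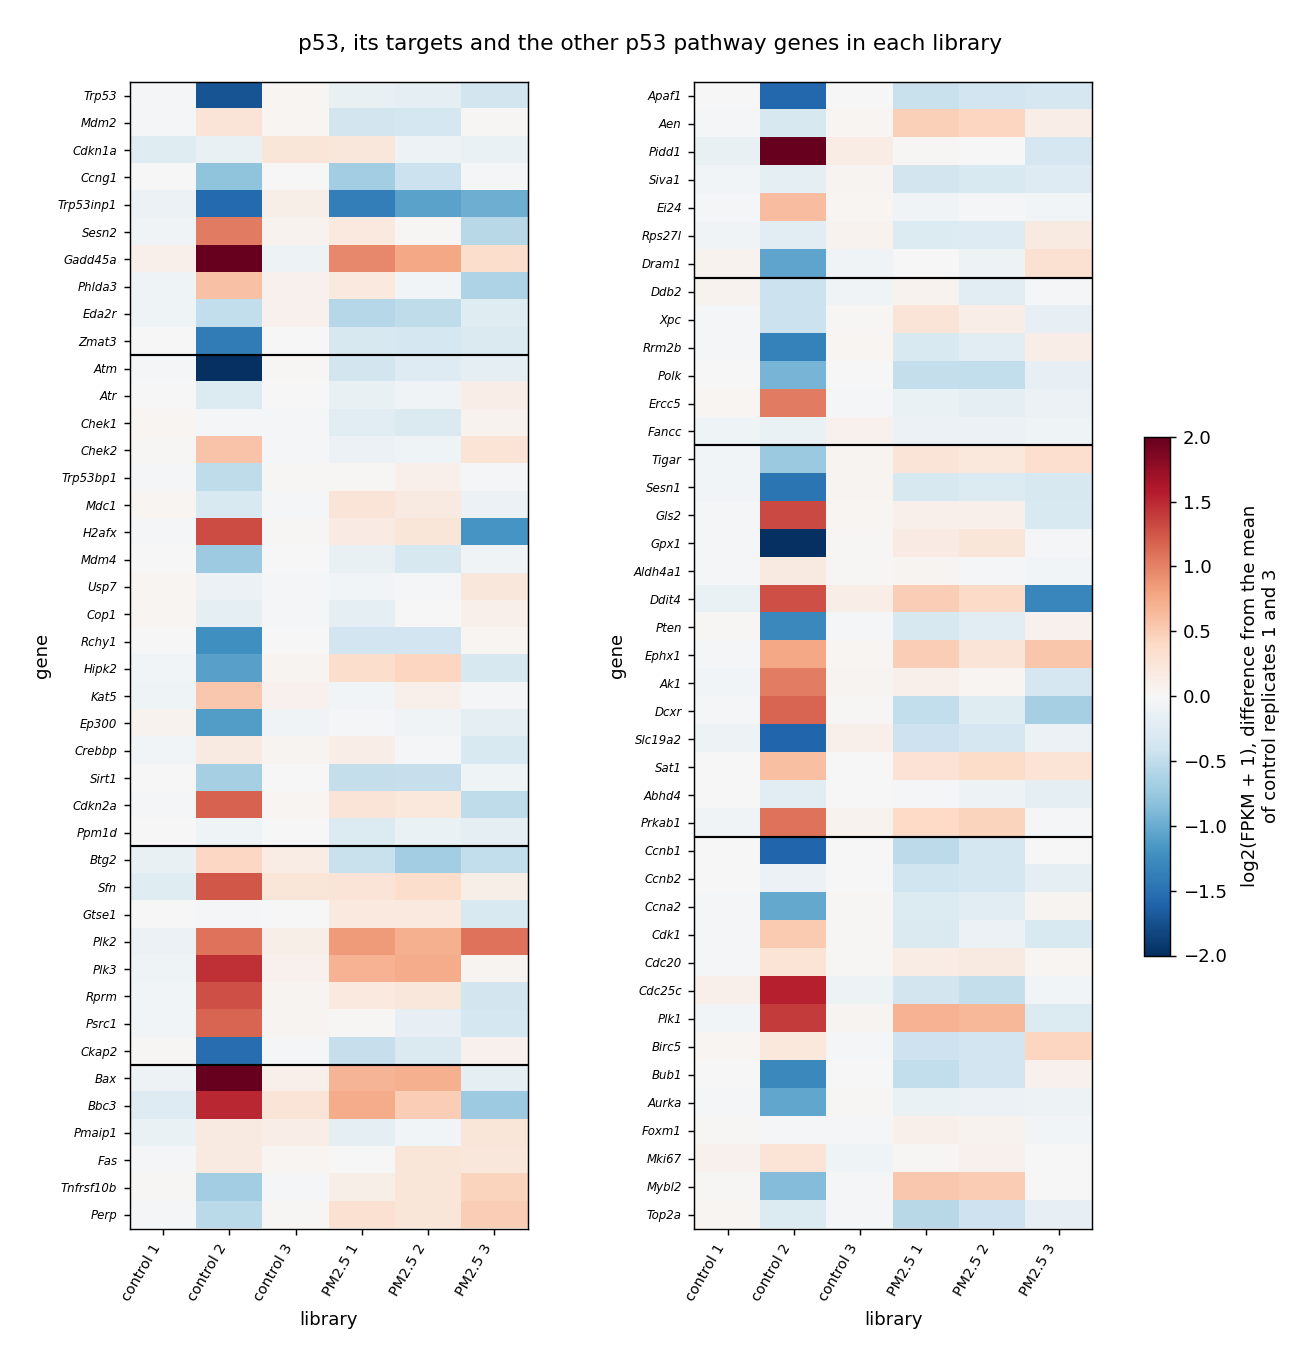
Difference of log2(FPKM + 1) from the mean of control replicates 1 and 3 (colour, limited to 2 in either direction) for Trp53 and its 9 targets, at the top left, and the 73 other pathway genes, in the 6 libraries, with black lines between the lists. The column of control replicate 2 holds the strongest colours of both signs, and the row of Trp53inp1 is blue in control replicate 2 and in all 3 PM2.5 libraries.

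**Figure D5:**
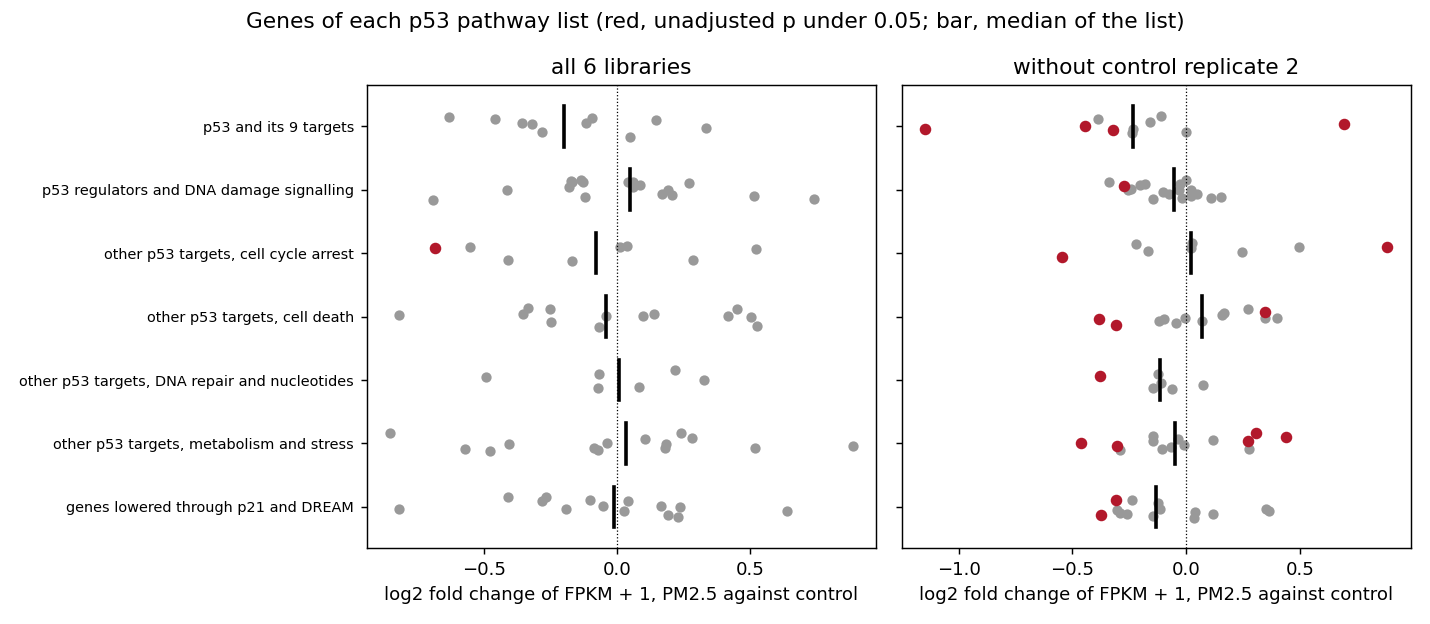
Log2 fold change of FPKM + 1 in PM2.5 against control cells for each gene of the 7 lists (points, red at an unadjusted p under 0.05) and the median of each list (black bar), over all 6 libraries (left) and without control replicate 2 (right). The list medians lie between −0.20 and 0.05 on the left, and 1 point is red there, Btg2 at −0.68.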

How the data were processed

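RNA from 3 control and 3 PM2.5 libraries of GC-2spd cells was prepared by the authors with the NEBNext Ultra kit and sequenced on an Illumina NovaSeq. The submitters' processing notes name HISAT2 2.0.5, featureCounts 1.5.0-p3 and the build mm9. The authors deposited FPKM per Ensembl gene. Groups and replicate numbers were taken from the labels.

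The values were multiplied by exon lengths of GENCODE M21 (GRCm38), which gave a length for 54495 of 54886 genes. In each library 98.0% to 98.1% of values under 50 reads then came out whole (within 0.02 reads), which gave the reads and the depth. The scale of the deposited FPKM did not follow the library totals (denominator over total 0.800 in control replicate 2 and 1.03 to 1.05 in the others). Whether it followed size factors was not tested. Coordinates come from GRCm38 only.

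The test was limma 3.58.1 (R 4.3.3, trend and robust) on log2(FPKM + 1), two-sided, for genes whose FPKM averaged at least 1. P-values were adjusted over all 11884 genes by Benjamini-Hochberg, and a gene was called at an adjusted p under 0.05. The computation was tested on simulated data. The members, the lists and the rule for named genes were chosen with earlier results of these data known. The rule names all 10 members, of each other list the called genes or else the 2 with the smallest unadjusted p over 6 libraries, and the 3 genes most like Trp53, Cdkn1a and Mdm2. Trp53-ps, E230016M11Rik, Plk2, Trp63 and Trp73 were named after their values were seen. Alternatives were other filters, pseudocounts, scalings, a fold threshold, voom on the recovered reads, a replicate block and leaving out libraries.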

Additional observations from a re-analysis of the deposited data

How the results depend on the processing

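The number of genes called over all genes tested, 11, was 0 with no filter (875 genes at an unadjusted p under 0.05), 0 with a mean FPKM of at least 5 (254), 0 with voom on the recovered reads (403), 0 with a replicate block (335) and 6 after scaling to the total of recovered reads. It ranged from 0 to 118 when each library was left out in turn, 118 being without control replicate 2, and was 5602 without control replicate 2 and PM2.5 replicate 3. The 10 p53 genes had 0 calls in every setting except this last, with 6, and 0 to 4 (without 1 library) or 7 (without both) at an unadjusted p under 0.05. Of the 73 other pathway genes, 42 were called without both libraries, in a fit that called 47.1% of all genes.

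The log2 fold change changed sign for Trp53 (−0.24 without control replicate 2, −0.17 without both libraries), Zmat3 (−0.32 and −0.34), Gadd45a (0.69 and 0.86), and Sesn2 and Phlda3 (0.11 and 0.070 without both). Gadd45a also had 0.037 after scaling to total reads, 0.077 with voom and 0.077 without PM2.5 replicate 3. Ccng1 had 0.012 and 0.016 in those scalings. It had 0.018 without control replicate 1, 0.019 without control replicate 3 and 0.037 without PM2.5 replicate 1. Cdkn1a turned to −0.045 without control replicate 1, −7.8e-05 without control replicate 2 and −0.065 without PM2.5 replicate 1. Leaving out 1 library gave −0.065 to 0.20 for Cdkn1a, −0.39 to 0.037 for Ccng1, −0.54 to 0.69 for Gadd45a, −0.24 to 0.64 for Trp53 and −0.32 to 0.39 for Zmat3. Mdm2, Trp53inp1 and Eda2r stayed below 0 in every setting run. The cause was not tested. Same-numbered control and PM2.5 libraries had correlations of −0.285, 0.180 and 0.253 in their deviations from the group means. Of 3 control libraries, 1 correlated best with its own number. These deviations depend strongly on control replicate 2, so that the correlations cannot decide whether the numbers pair the samples. The replicate block called 0 of the 10 genes. With 74 to 205 reads, Eda2r has the least depth.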
